A study of Mus musculus with 6 samples.

Results

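The 10 genes described here are Csn3, Cytl1, Ndnf, Pgbd5, Dynlrb2, Ttpa, Clca3a1, Clca3a2, Rhpn2 and Cntnap5a, which are known mainly from tissues other than Schwann cells. They were chosen by their values on these same arrays, where earlier results showed them low in control sciatic nerves and raised in nerves lacking HDAC1 and HDAC2. The direction and size of their difference between the groups are therefore what chose them, and those values are given as a description without a test. A gene was taken from every probe set annotated with that gene symbol alone, and its level was read from the probe set with the highest mean over the 6 arrays. The 10 genes are 10 of 18194 genes with such a probe set and are covered by 15 of the 45101 probe sets on the array.

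The samples were sciatic nerves of pups at postnatal day 2, freed of their perineurium, and the RNA of each was read on 1 Mouse Genome 430 2.0 array. The mutant group, called dKO, held 3 samples of genotype DhhCre+ HDAC1-2 dKO, and the control group held 3 samples of genotype DhhCre– from littermates; all were of mixed strain. In DhhCre mice the desert hedgehog gene, active in the Schwann cell lineage, controls the recombinase. Which cells of the nerve carried the deletion cannot be read from bulk nerve RNA. Control pups carried no Cre, and neither their other alleles nor the number of pups behind each sample is given in the sources used here, so every p-value measures the spread between these samples.

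The log2 expression value of Hdac1 was 10.48, 10.38 and 10.36 in the controls and 8.75, 8.97 and 8.85 in the dKO samples. It fell by 1.55 (SE 0.134, adjusted p = 0.000271, limma), to 34.1% of the control level. Hdac2 was 12.34, 12.33 and 12.33 in the controls and 11.22, 10.81 and 11.19 in the dKO samples, and it fell by 1.26 (SE 0.154, adjusted p = 0.00103, limma), to 41.8%. With its 3 probe sets averaged Hdac2 fell by 0.71. Neither gene's groups overlapped, although whether these probe sets lie within the deleted exons is not given in the sources used here. The 6 arrays had the same overall distribution of values. Over the 14550 genes that reached a log2 value of 4 on at least 3 of the 6 arrays, the median of dKO 3 lay 0.16 above the mean of the control medians.

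Histone deacetylases 1 and 2 remove acetyl groups from histones as catalytic subunits of corepressor complexes, and loss of acetylation is usually linked to a closed, silent gene. Many genes that serve one specialised cell type are kept silent in all others. Schwann cells, the glia of peripheral nerves, begin to form myelin around birth, and HDAC1 and HDAC2 together are known to be needed for that step. The genes described here come from many other settings: milk, cartilage, sensory and central neurons, mucosal epithelium, ciliated cells and liver.

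The sequence at the start of a gene is one property that played no role in the choice. RefSeq promoter windows on GRCm38.p6, each running from 250 bases before to 50 bases after the start, are described for 5 of the 10 genes: Cytl1, Clca3a1, Pgbd5, Dynlrb2 and Rhpn2. Those of 3 genes are printed to show how unlike they are: Cytl1, which had the largest difference among these 5, Clca3a1, which had the fewest CpG dinucleotides, and Pgbd5, which had the most. They lie at chr5:37735269-37735568 on the plus strand for Cytl1, chr3:144760928-144761227 on the minus strand for Clca3a1 and chr8:124433887-124434186 on the minus strand for Pgbd5. Each is written 5′ to 3′ along the gene, with every CpG dinucleotide in capitals.
Cytl1: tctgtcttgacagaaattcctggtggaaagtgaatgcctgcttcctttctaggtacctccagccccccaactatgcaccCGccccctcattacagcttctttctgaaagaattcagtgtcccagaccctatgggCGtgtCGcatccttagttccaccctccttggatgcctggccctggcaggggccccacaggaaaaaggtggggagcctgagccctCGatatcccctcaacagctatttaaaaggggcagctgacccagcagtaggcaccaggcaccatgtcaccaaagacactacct
Clca3a1: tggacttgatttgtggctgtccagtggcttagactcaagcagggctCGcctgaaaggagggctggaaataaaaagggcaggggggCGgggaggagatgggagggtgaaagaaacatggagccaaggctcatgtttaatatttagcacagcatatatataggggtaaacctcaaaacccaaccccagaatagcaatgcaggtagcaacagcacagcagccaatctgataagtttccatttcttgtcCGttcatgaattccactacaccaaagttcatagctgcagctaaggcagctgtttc
Pgbd5: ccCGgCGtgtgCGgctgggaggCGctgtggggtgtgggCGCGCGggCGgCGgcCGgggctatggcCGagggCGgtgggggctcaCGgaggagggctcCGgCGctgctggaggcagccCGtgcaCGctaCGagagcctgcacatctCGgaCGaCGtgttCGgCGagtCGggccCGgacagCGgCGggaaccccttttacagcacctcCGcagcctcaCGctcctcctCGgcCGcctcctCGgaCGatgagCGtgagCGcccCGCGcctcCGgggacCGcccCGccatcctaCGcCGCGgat

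CpG content ranged from that of a CpG-poor to that of a CpG-dense window. Clca3a1 held 3 CpG dinucleotides and Cytl1 held 4, against a median of 7 over all 32851 windows (quartiles 3 and 20). The Dynlrb2 window (chr8:116504765-116505064, plus strand) held 13, that of Rhpn2 (chr7:35333987-35334286, plus strand) held 20 and that of Pgbd5 held 43. The Pgbd5 window was 75.3% G and C, and 97.4% of all windows held fewer CpG dinucleotides. Most of the Pgbd5 window follows an ATG whose reading frame runs without a stop codon to the end of the window. That stretch may be coding sequence rather than sequence before the start, which was not tested. The median was 19 in the windows of the genes tested and 15 in the 61 windows of tested genes whose control arrays all lay under 4. The 5 windows thus lay on both sides of each of these medians.

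**Figure D1:**
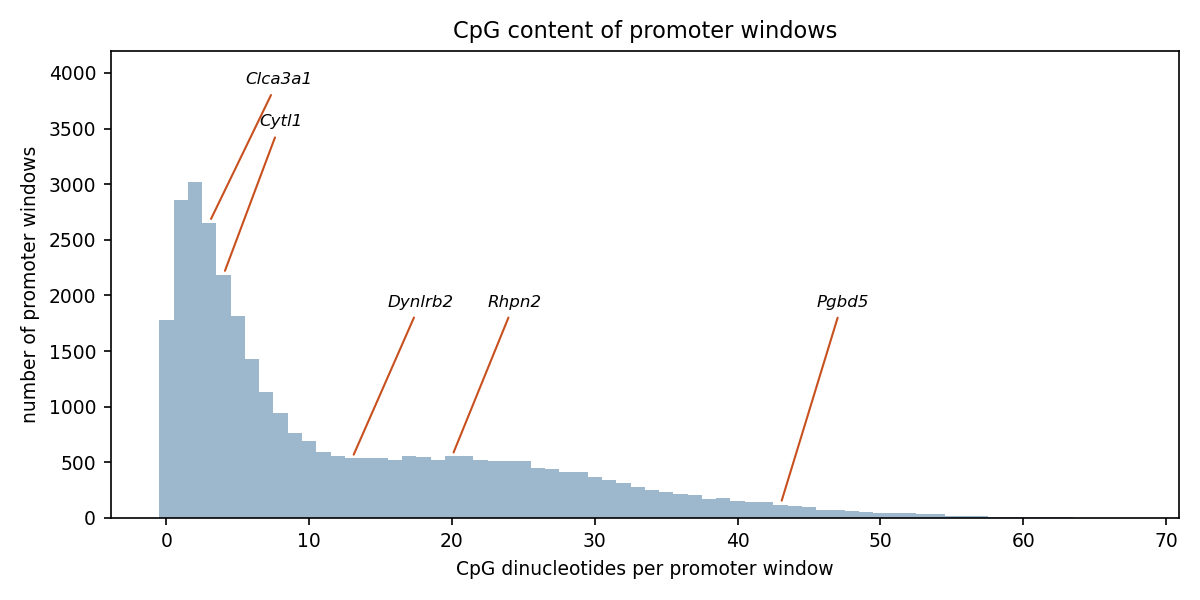
CpG dinucleotides per promoter window. The horizontal axis gives the CpG dinucleotides in a window, the bars give the number of the 32851 RefSeq windows with that count, and the lines point to the 5 genes described. Clca3a1 and Cytl1 sit in the CpG-poor peak at 3 and 4, and Pgbd5 sits in the far tail at 43.

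Short motifs were searched on both strands of these windows. The GC box core GGGCGG was present in all 5 and in 35.7% of all windows. The CCAAT box (CCAAT) was present only in Clca3a1 among the 5 and in 37.4% of all windows. None of the 5 held the TATA box core TATAAA (13.6% of all windows), the AP-1 site TGANTCA (7.81%), the Sox site cores ACAAAG (18.7%) or AACAAT (10.7%), the Egr site GCGTGGGCG (0.612%), the cyclic AMP response element TGACGTCA (1.79%) or the STAT site TTCNNNGAA (8.30%). GGGCGG itself contains a CpG dinucleotide. The median CpG count was 7 in all windows and 19 in those of tested genes, for which no motif share was computed.

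Across the arrays, 8 of the 10 genes went from below the low-value limit in control nerves to above it in dKO nerves, while Cytl1 and Ndnf were already above it in controls. That limit is a log2 value of 4; values under it are treated as having no order, and a fold against a control group under the limit is given as a lower bound, computed with values under 4 set to 4. All 10 genes were at or above it on the 3 dKO arrays. In bulk nerve RNA, more cells of one type and more RNA per cell cannot be told apart. Levels read from different probe sets cannot be set against each other, so the genes are compared by their differences.

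**Figure D2:**
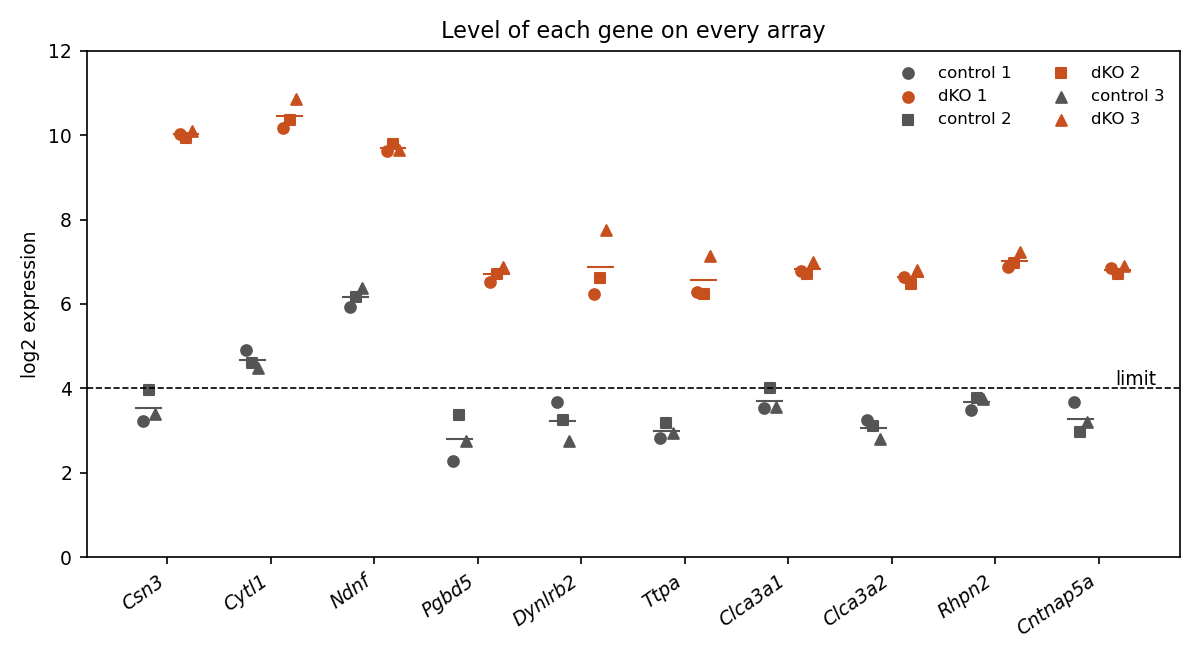
Log2 expression of the 10 genes on each of the 6 arrays. The vertical axis is the log2 expression value, each point is 1 array and the short lines are the mean of 3 arrays per group; the dashed line is the limit of 4. In every gene the 3 dKO arrays lie above the 3 control arrays and above the dashed line, from 6.25 upward.

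Csn3 and Cytl1, which encode secreted proteins, had the largest differences of the 10. Csn3 encodes kappa-casein, the milk protein that keeps casein micelles in suspension. Its log2 values were 3.23, 3.96 and 3.40 in the controls and 10.03, 9.94 and 10.09 in the dKO samples. The control arrays were all under the limit, while the dKO arrays lay within 0.155 of each other. Mean levels were 3.53 ± 0.38 (SD, n = 3) and 10.02 ± 0.078 (SD, n = 3), a difference of 6.49 (SE 0.199) or at least 64.8-fold.

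Cytl1 encodes a small secreted cytokine-like protein best known from cartilage. Its values were 4.92, 4.60 and 4.47 in the controls and 10.18, 10.35 and 10.86 in the dKO samples. All control arrays were just above the limit, and the difference was 5.80 (SE 0.21), 55.7-fold. Ndnf encodes a secreted neurotrophic factor of neurons. It was above the limit in all controls, at 5.93, 6.17 and 6.37, and it read 9.62, 9.80 and 9.66 in the dKO samples. Its groups were separated by 3.25, and the difference was 3.54 (SE 0.157) or 11.6-fold.

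Clca3a1 and Clca3a2 encode paralogous proteins of the calcium-activated chloride channel regulator family, known from epithelia and endothelium, and lie next to each other among the protein-coding genes of chromosome 3. Clca3a1 read 3.54, 3.997 and 3.55 in the controls and 6.79, 6.71 and 6.995 in the dKO samples, a difference of 3.14 (SE 0.173), at least 7.12-fold. Clca3a2 read 3.26, 3.11 and 2.81 in the controls and 6.64, 6.48 and 6.79 in the dKO samples, a difference of 3.58 (SE 0.167), at least 6.21-fold. Both were under the limit on all control arrays, and on both dKO 3 was highest and dKO 2 lowest. A further probe set that is annotated with both symbols read 1.91, 2.90 and 2.21 in the controls and 7.36, 7.08 and 7.47 in the dKO samples. Because the paralogs are alike in sequence, how much of each signal belongs to which gene is uncertain.

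Pgbd5, Dynlrb2, Ttpa and Rhpn2 encode proteins that act inside the cell. Pgbd5, a domesticated piggyBac transposase known from brain, read 2.28, 3.38 and 2.74 in the controls and 6.52, 6.70 and 6.88 in the dKO samples. The difference was 3.90 (SE 0.263), at least 6.51-fold. Dynlrb2 is a dynein light chain of the roadblock family, found in ciliated cells and testis. Its values were 3.67, 3.25 and 2.75 in the controls and 6.25, 6.61 and 7.76 in the dKO samples, where dKO 3 lay well above the others. The difference of 3.65 had the largest error of the 10 genes (SE 0.389) and was at least 7.32-fold.

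Ttpa encodes the alpha-tocopherol transfer protein, which hands vitamin E to lipoprotein secretion in the liver. It read 2.84, 3.18 and 2.93 in the controls and 6.27, 6.25 and 7.15 in the dKO samples, again with dKO 3 apart from the other two. The difference was 3.57 (SE 0.251), at least 5.88-fold. Rhpn2 read 3.49, 3.78 and 3.75 in the controls and 6.87, 6.96 and 7.23 in the dKO samples, a difference of 3.35 (SE 0.158), at least 8.13-fold. Cntnap5a encodes a cell surface protein of the contactin-associated family, known from neurons. It read 3.68, 2.96 and 3.21 in the controls and 6.85, 6.70 and 6.89 in the dKO samples, with a difference of 3.53 (SE 0.196), at least 7.04-fold. The dKO arrays of Cntnap5a lay within 0.188 of each other, and its control arrays were all under the limit.

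Over the 10 genes the median difference was 3.58, with a range from 3.14 to 6.49, and the median over all 14550 genes tested was 0.006. For the 8 genes with controls under the limit these differences rest on values that have no order, and the lower bounds of their folds ran from 5.88 to 64.8. The SEs of the 10 genes ran from 0.157 to 0.389, around the median SE of 0.174 of all genes tested. With a threshold of 0.05 for the adjusted p, the limma fit called 3198 genes (22.0%), of which 1833 (12.6%) were higher in dKO and 1365 (9.38%) were lower, and all 10 genes were among the higher. In 3283 genes (22.6%) the lowest dKO array lay above the highest control array, and all 10 genes were among these. Both counts follow from how the genes were picked, and 8 of the 10 passed the low-value filter only through their dKO arrays.

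**Figure D3:**
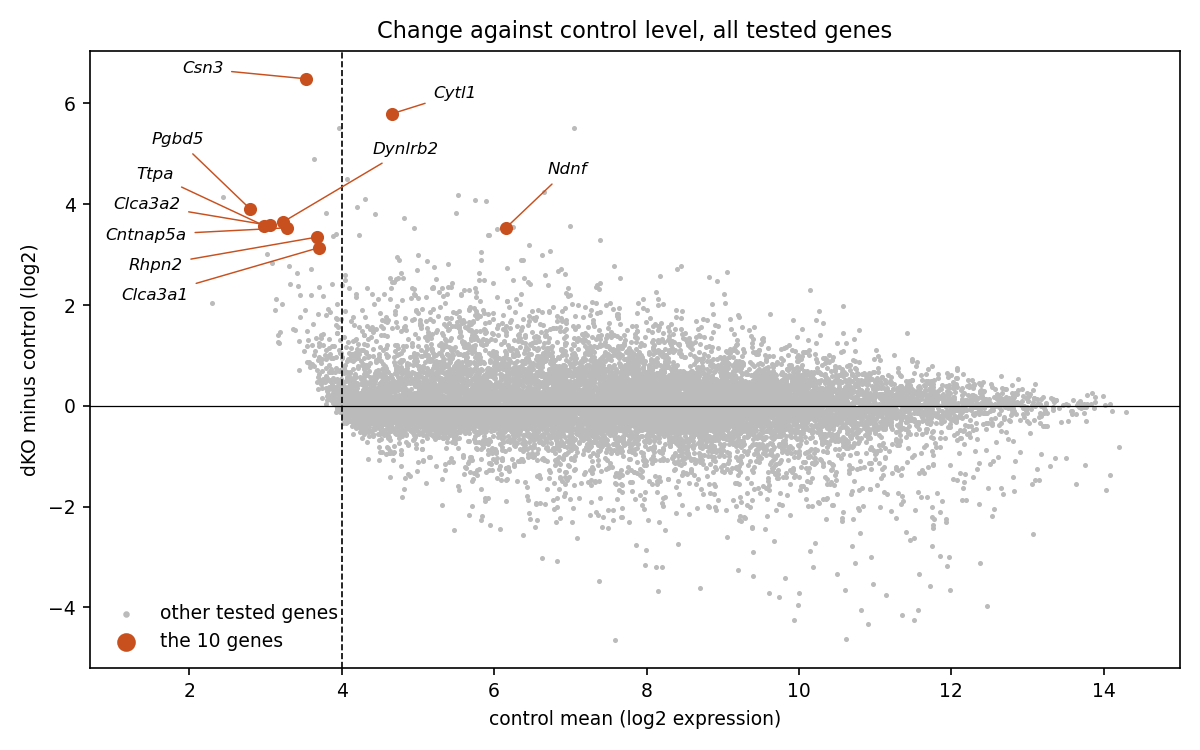
Change against control level for the 14550 genes tested. The horizontal axis is the mean control log2 expression, the vertical axis is the dKO minus control difference in log2, each grey point is a tested gene, the labelled points are the 10 genes and the dashed line is the limit of 4. The 10 genes lie between 3.14 and 6.49, with 8 of them left of the dashed line and Cytl1 and Ndnf to its right.

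Of the 10 genes, 5 were measured by 2 probe sets and 5 by 1. The second probe set of Clca3a2 differed by 3.64, against 3.58 in the first, and that of Clca3a1 by 2.82, against 3.14. For Rhpn2 the second probe set differed by 1.53, from 3.60 ± 0.16 to 5.13 ± 0.204 (SD, n = 3), less than the 3.35 of the first. The second probe sets of Csn3 and Ndnf stayed under the limit on all 6 arrays: that of Csn3 averaged 2.22 ± 0.125 in controls and 2.57 ± 0.265 in dKO, and that of Ndnf 2.73 ± 0.1 and 3.78 ± 0.249 (SD, n = 3). The difference of Csn3 therefore rests on a single probe set, and with the probe sets averaged it was 3.42. In all 15 probe sets the dKO arrays lay above the control arrays, as they did in 15.6% of all 45101 probe sets, but in the pair under the limit that order has no meaning.

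**Figure D4:**
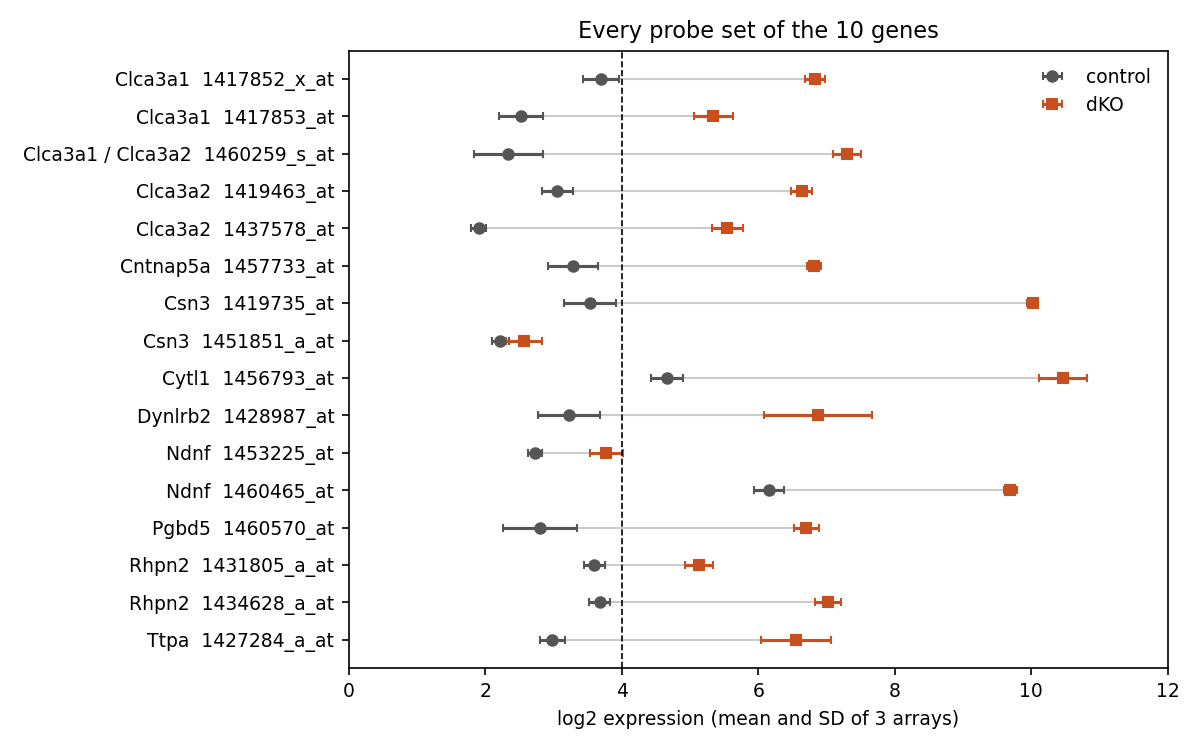
Every probe set of the 10 genes, and the 1 annotated with both Clca symbols. The horizontal axis is the log2 expression value, points and bars are the mean and SD of 3 arrays per group, and the dashed line is the limit of 4. The second probe sets of Csn3 and Ndnf lie left of the dashed line in both groups, and all others cross it or lie to its right in dKO.

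Among the dKO samples most of the 10 genes were highest on the same array. In 9 of the 10 the highest dKO array was dKO 3, and in Ndnf it was dKO 2. The same array was highest in 7282 of all 14550 genes tested, in 55.4% of those called higher, and in 66.7% of the 42 genes with a difference of at least 3, of which the 10 are part. The deviations from the dKO mean had medians of -0.109, -0.112 and 0.171 on dKO 1, 2 and 3 over the 10 genes, and of -0.044, -0.020 and 0.068 over all genes tested. Dynlrb2 deviated most, at 0.89 on dKO 3, followed by Ttpa at 0.591. Csn3, Ndnf and Cntnap5a deviated by at most 0.111 on any array. Mag, a myelin-associated adhesion protein, ran the other way: its values were 7.06, 5.62 and 5.27 on dKO 1, 2 and 3, against 10.70, 10.74 and 10.40 in the controls. Hdac1 and Hdac2 followed neither order, and what part the level of dKO 3 has in these differences was not tested.

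Other genes of the same families and pathways were measured for comparison. Of 84 genes on 9 lists related to the 10 genes, 74 were measured and 52 were tested, of which 8 (15.4%) were called, 5 higher and 3 lower, against 22.0% of all genes tested. Their median difference was -0.002, and that of all genes tested was 0.006. With 1 array left out the count of calls ran from 4, without control 2 or without dKO 2, to 10 without dKO 3; it was 5 without control 3 or without dKO 1. With the probe sets of each gene averaged it was 13. The lists were drawn up with earlier results of these arrays known.

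The milk protein genes other than Csn3 did not follow it. Only 2 of 8 measured genes passed the filter, none was called, and Csn1s1, Csn2, Csn1s2a, Csn1s2b and Odam were under the limit on all 6 arrays. Csn2, which encodes beta-casein, read 2.44, 2.38 and 2.06 in the controls and 2.44, 2.88 and 2.33 in the dKO samples. Wap, which encodes whey acidic protein, averaged 4.55 ± 0.179 in controls and 4.24 ± 0.094 in dKO (SD, n = 3). In prolactin signalling, the pathway that drives casein genes in mammary gland, the receptor gene Prlr was not among the 7 genes measured. Of the genes of this pathway, 1 of 6 tested was called. This was Socs2, a feedback inhibitor of cytokine receptors, at 7.86, 8.19 and 8.19 in the controls and 9.01, 9.12 and 9.52 in dKO, a rise of 1.14 (SE 0.181, adjusted p = 0.0033, limma) that was 0.74 with its 6 probe sets averaged.

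In the Clca family 2 of 5 measured genes were tested and both were called. Clca1, a secreted mucus protein of goblet cells, was under the limit on all control arrays and read 4.15, 4.83 and 4.28 in dKO, a rise of 1.26 (SE 0.211, adjusted p = 0.00418, limma) or at least 1.34-fold. Only 1 of its 2 probe sets separated the groups, and with both averaged the rise was 0.65. Clca1 passed the low-value filter only through its dKO arrays, as did all 63 tested genes whose controls were under the limit. Its groups could therefore not overlap once it was tested, and its p-value rests on control values that have no order. Clca4a read 5.19, 3.73 and 2.84 in the controls and 5.52, 5.89 and 5.59 in dKO, a rise of 1.75 (SE 0.499, adjusted p = 0.0391, limma), and the call was lost when control 2, control 3 or any dKO array was left out (highest adjusted p = 0.111). Clca3b was under the limit on all 6 arrays, and the paralogs may share signal.

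Of 10 dynein subunits tested, Dynll2 alone was called, with a rise of 0.48 (SE 0.141, adjusted p = 0.0422, limma) that lost the call in 7 of 13 alternatives (highest adjusted p = 0.14), and Dynlrb1, the relative of Dynlrb2, read 12.52, 12.42 and 12.48 in controls and 12.40, 12.33 and 12.26 in dKO.

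None of the 4 contactin-family genes tested was called. Cntn1, an adhesion protein of axons and glia, averaged 9.02 ± 0.161 in controls and 8.64 ± 0.283 in dKO (SD, n = 3), and Cntnap2 and Cntnap4, relatives of Cntnap5a, were under the limit on all 6 arrays. None of 6 lipid carriers of the CRAL-TRIO family, to which Ttpa belongs, was called; Sec14l2 averaged 8.58 ± 0.354 and 8.60 ± 0.31. Of 7 domesticated transposases 1 was called, Jrk, which fell by 0.69 (SE 0.195, adjusted p = 0.039, limma) and lost the call in 5 of 12 alternatives. None of 7 genes of the migration of gonadotropin-releasing hormone neurons, a process in which Ndnf takes part, was called, and Wdr11 averaged 10.50 ± 0.023 and 10.57 ± 0.04.

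The genes beside the 10 on the chromosome were examined in the gene order of RefSeq. Counting 3 annotated genes of any kind on each side, 20 of 56 neighbours were measured and 11 were tested, of which 2 (18.2%), Stk32b and Galnt2, were called, both higher. With 1 array left out the count ran from 1, without control 1, control 3 or dKO 2, to 3 without control 2. Many annotated neighbours were noncoding or predicted genes that no probe set names, so protein-coding neighbours were also counted, a choice made after the data were seen. Of 54 such neighbours 45 were measured and 30 tested, with 7 higher and 2 lower (30.0%), against 22.0% of all genes tested.

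Around Cytl1 the called genes were not contiguous. Stk32b, a serine/threonine kinase gene directly beside Cytl1 among protein-coding genes, read 4.33, 5.12 and 5.02 in the controls and 8.31, 8.70 and 8.65 in dKO. It rose by 3.73 (SE 0.229, adjusted p = 8.4e-05, limma), 13.3-fold, and both of its probe sets separated the groups. Nsg1, which encodes an endosomal protein of neurons and is the third gene on the other side, read 7.34, 7.30 and 7.38 in the controls and 8.89, 9.68 and 9.57 in dKO, a rise of 2.04 (SE 0.212, adjusted p = 0.000548, limma) that was 1.21 with its 2 probe sets averaged. Msx1, a homeobox gene, and Stx18, a syntaxin gene, lie between Cytl1 and Nsg1 and averaged 5.59 and 8.13 in controls and 5.16 and 7.62 in dKO, and neither was called. Evc and Evc2, ciliary genes beyond Stk32b, were not called either.

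Csn3 stood alone in its surroundings: Prr27, Odam, Cabs1, Smr3a and Smr2, genes of secreted saliva, milk and tooth proteins or of testis, were under the limit on all 6 arrays. Near Pgbd5, Urb2, a ribosome biogenesis gene, rose by 0.84 (SE 0.158, adjusted p = 0.00696, limma), and Galnt2, which starts mucin-type O-glycans, rose by 0.63 (SE 0.157, adjusted p = 0.0227, limma). The Galnt2 call was lost in 5 of 13 alternatives. Cog2, on the other side, averaged 7.32 in controls and 7.36 in dKO. Near Dynlrb2, Cmc2 rose by 0.88 (SE 0.173, adjusted p = 0.00827, limma), a call that was lost with its 4 probe sets averaged (0.40, adjusted p = 0.0618, limma). Wwox rose by 0.50 (SE 0.141, adjusted p = 0.0364, limma), a call that was lost in 10 of 13 alternatives. Wwp1, near Ttpa, fell by 0.89 (SE 0.133, adjusted p = 0.00245, limma), and Selenof, near Clca3a1, fell by 0.47 (SE 0.134, adjusted p = 0.0399, limma), a call lost in 6 of 13. No tested neighbour of Ndnf, Rhpn2 or Cntnap5a was called.

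**Figure D5:**
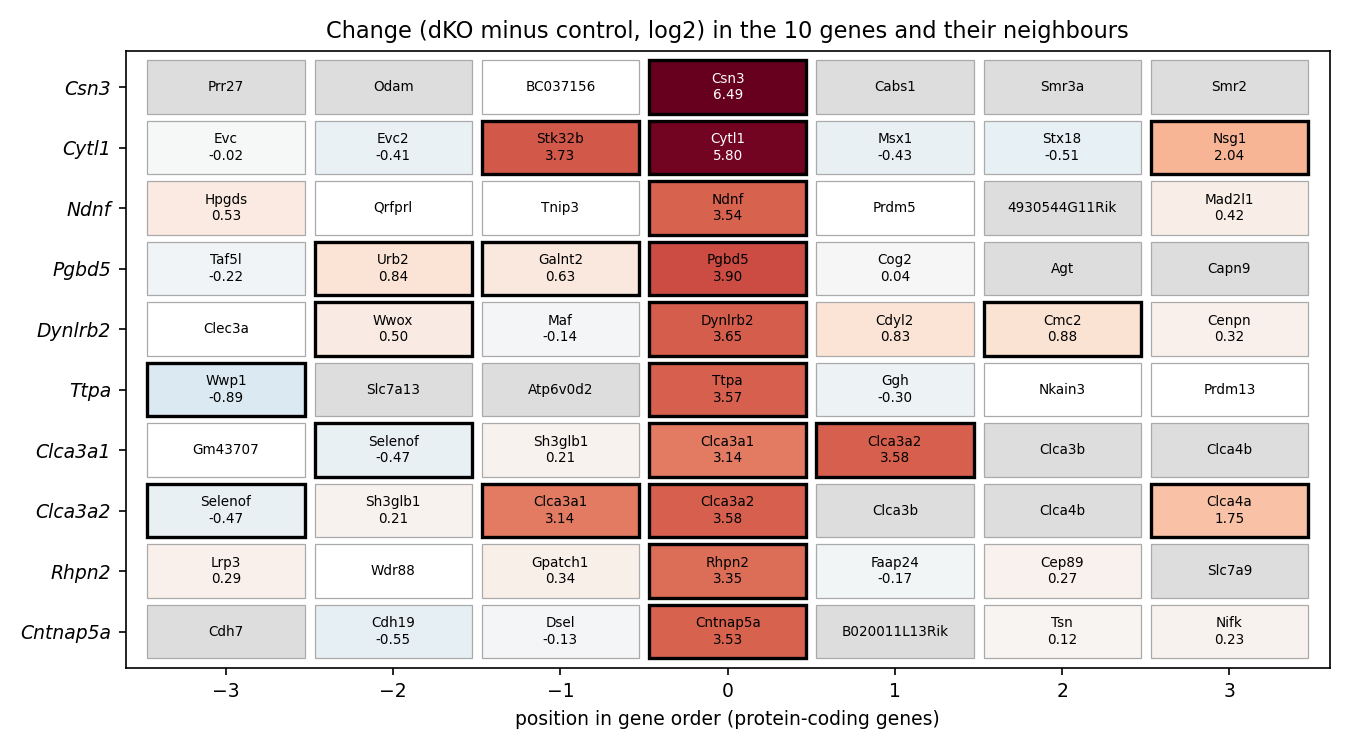
The 10 genes and the 3 protein-coding genes on each side in RefSeq gene order. The horizontal axis is the position in gene order, numbers and colours give the dKO minus control difference in log2, thick borders mark the 10 genes and called genes, grey genes did not pass the low-value filter and white genes are not named here. Apart from the Clca pair, the neighbours with differences over 1 are Stk32b (3.73) and Nsg1 (2.04) around Cytl1 and Clca4a (1.75) beyond Clca3a2.

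Because the 10 genes are known from other cell types, 13 lists of cell type markers were measured on the same arrays. Of all genes tested, 12.6% were called higher and 9.38% lower, which is the background for the counts below. For the source tissues, the secretory epithelium list had 0 of 5 tested genes higher and 1 lower, with Krt18, Cldn4 and Elf5 under the limit on all 6 arrays, and its summed linear level ranged from 174 to 227 in controls and from 123 to 223 in dKO. Esrp1, an epithelial splicing factor, fell from 6.08 ± 0.605 (SD, n = 3) and lay below 4 in each dKO sample. The hepatocyte list had none of 7 tested genes called, with sums of 259 to 314 and 264 to 301.

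The chondrocyte list had 1 of 4 tested genes higher and none lower, with sums of 895 to 1250 in controls and 1510 to 1740 in dKO. The gene was Col9a1, a cartilage collagen, which rose by 1.39 (8.71 ± 0.132 to 10.10 ± 0.131, SD, n = 3). Acan, Col2a1 and Cnmd differed by -0.24, -0.34 and -0.20, none of them called, the median of the list was -0.22, and Matn1, Matn3 and Hapln1 were under the limit on all 6 arrays. In the multiciliated cell list 2 of 8 tested genes were higher and 1 lower, with sums of 298 to 338 and 515 to 585. Rsph1, a radial spoke protein, rose by 1.89 (SE 0.144, adjusted p = 0.000189, limma), and Ccdc39, which assembles axonemal arms, rose by 0.84 with a call lost in 7 of 13 alternatives. The lower gene, Dnah9, fell by 0.59 (SE 0.167, adjusted p = 0.0371, limma), with 2 dKO arrays under the limit. Foxj1, Dnah5, Tekt1, Tekt2 and Cfap43 differed by 0.19 to 0.40, none of them called. The neuron list had 1 of 9 genes higher, Snap25, a synaptic fusion protein, at 5.88 ± 0.217 in controls and 7.33 ± 0.295 in dKO (SD, n = 3), with sums of 1350 to 1810 and 1930 to 2520. The most abundant gene of that list, Nefl, a neurofilament subunit, averaged 10.17 ± 0.329 and 10.71 ± 0.274 and was not called, and Tubb3, Elavl3, Rbfox3 and Nefm differed by -0.26 to -0.02, none of them called. The sums of these lists were higher in dKO beside Cytl1, Dynlrb2, Ndnf, Pgbd5 and Cntnap5a, but most genes of the lists were not called. Each sum is weighted to the abundant genes of its list, and the most abundant were Col9a1 of the chondrocyte list and Nefl of the neuron list. What part these lists have in those differences was not tested.

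Lists of the other nerve cells also held called genes, against 12.6% of all genes tested called higher and 9.38% lower. The Schwann cell list had 2 of 6 tested genes lower, Erbb3 and S100b. Sox10, Cdh19, Gfra3 and Foxd3 differed by -0.36, -0.55, 0.04 and 0.46, none of them called. The sums of the list were 7330 to 9490 in controls and 3790 to 5220 in dKO, and Erbb3 was its most abundant gene. None of the 6 was under the limit on any array. The fibroblast list had 3 of 5 genes higher (sums of 26100 to 28700 and 31900 to 33300), the macrophage list 1 of 5 (1100 to 1610 and 1870 to 3900), the endothelial list 1 of 8 (1000 to 1270 and 1340 to 1870) and the perineurial list 1 higher and 1 lower of 5 (1570 to 1620 and 2160 to 2740). The endothelial sums were higher in dKO beside Clca3a1 and Clca3a2, but Prox1 alone of that list was called. Only 1 of the 3 probe sets of Prox1 separated the groups, and its rise of 1.04 was 0.39 with them averaged. The melanocyte list had 2 of 3 lower (145 to 210 and 82.1 to 105), and the adipocyte and skeletal muscle lists had none called of 2 and 5, with sums of 58.3 to 82.5 and 127 to 181 in controls and 58.8 to 63.8 and 131 to 157 in dKO. The calls of Dcn, Aif1, Cldn1, Itgb4, Prox1 and Pmel in these lists were each lost in between 2 and 7 of the 11 to 13 alternatives that gave a value. What part the changes in these lists have in the differences of the 10 genes was not tested.

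Outside the 10, the genes most like them over the 6 arrays were named by the root mean square difference from their median profile, in which values under 4 were set to 4 and the control mean was subtracted. The 5 closest were Fbxl16 (0.125), Hey2 (0.211), Efna3 (0.213), Bex4 (0.232) and Pnma2 (0.243), in log2. Their levels in controls averaged 6.38, 3.65, 3.88, 6.35 and 5.01, and Fbxl16, Bex4 and Pnma2 were above the limit on all 3 control arrays. Their differences ran from 2.89 for Fbxl16 to 3.37 for Efna3, which was 2.20 with its 2 probe sets averaged. Among the 10 themselves the value ran from 0.08 for Clca3a1 to 2.20 for Csn3, since Csn3 and Cytl1 (2.05) rose much further than the median profile.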

How the data were processed

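RNA of 6 sciatic nerve samples, 3 per group, was hybridised to Mouse Genome 430 2.0 arrays. The deposited log2 expression values were made by the authors with GCOS 1.2 and GCRMA, per the submitters' processing notes. The log2 scale itself was read from the range of the values (1.661 to 14.94). Of 45101 probe sets, 34958 have 1 gene symbol, 932 several and 9211 none in the annotation used here.

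Each gene was read from its probe set with the highest mean. Genes reaching 4 on at least 3 of 6 arrays were tested with limma 3.58.1 in R 4.3.3 (lmFit and eBayes), with Benjamini-Hochberg adjustment over all 14550 genes and a threshold of 0.05. The script was checked on simulated data. The members and lists were chosen with earlier results of these data known. Other genes are named by rule: called neighbours, up to 2 called genes per related list with the smallest adjusted p (the most abundant where none), the 5 most alike genes, and in marker lists the largest changes and the most abundant gene; further genes named were chosen after their values were seen. The promoter window of Clca3a2 and 1 related list, which is part of the pooled count of related genes, are not reported here. Scanner files and batches were not analysed here, and arrays give no read depth, so their number limits the precision.

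Deviations of same-numbered arrays correlated at 0.04, -0.12 and -0.23, so the samples were not treated as paired by replicate number. With 3 arrays per group these values cannot exclude pairing by litter. The highest correlation, 0.215, was that of control 3 with dKO 2. Alternatives were other low-value limits, probe set averaging, centring, an intensity trend, the block and leaving out each array.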

Additional observations from a re-analysis of the deposited data

How the results depend on the processing

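Of 14550 genes, 3198 were called, and the alternatives gave 2178 to 3479: 2557 with the replicate block, and 2178 to 2916 with 1 array left out. The median difference of the 10 genes (3.58) ranged from 3.50 to 3.69. Averaging probe sets lowered Csn3 to 3.42, Ndnf to 2.29 and Rhpn2 to 2.44, since a weaker probe set entered the mean. The 8 calls among related genes became 13 with probe sets averaged, 5 with the replicate block and 4 to 10 with 1 array left out; they numbered 4 without control 2 or without dKO 2, and 5 without control 3 or without dKO 1. The 2 called neighbours became 1 with probe sets averaged, 1 with the replicate block, 1 to 3 with 1 array left out (1 without control 1, control 3 or dKO 2) and 9 with protein-coding neighbours, which was chosen after seeing the data. Sign changes were seen in 3 uncalled genes: Sec14l2 was -0.051 with arrays centred and -0.153 to 0.206 with 1 array left out, Wdr11 was -0.013 with arrays centred, and Tnni2, a skeletal muscle gene, ranged from -0.19 to 0.074 with 1 array left out. For related genes, neighbours and sign changes the cause was not tested. Over all alternatives, 575 values of the other named genes kept their direction and side of the threshold, 68 lost the call, 1 gained it and 5 changed sign. Values under 4 set a limit: for 8 of the 10 genes only a lower bound of the fold can be given.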

Other observations

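Besides the 10 genes, 7 others had all control arrays under the limit and a dKO mean of at least 6, a cut chosen after the values were seen, and their differences are given as a description. Of 63 tested genes with all control arrays under the limit, 15 reached that mean, 8 of them among the 10. Col25a1, a transmembrane collagen of neurons, read 3.61, 3.83 and 3.49 in the controls and 8.40, 8.47 and 8.76 in dKO, at least 23.3-fold. Cadps, which primes secretory vesicles, read 2.27, 2.40 and 2.64 and then 6.08, 6.23 and 7.45, at least 6.01-fold. Scn3a, a voltage-gated sodium channel subunit, read 2.70, 3.30 and 2.97 and then 6.24, 6.36 and 7.11, at least 5.93-fold. Epha3, an ephrin receptor, Syt6, a synaptotagmin, Gprin2 and Akr1cl were at least 4.25-fold, 4.14-fold, 4.10-fold and 4.08-fold higher. For Scn3a and Akr1cl 1 of 2 probe sets separated the groups in this direction, and for Syt6 1 of 4 did. With its 2 probe sets averaged the difference of Col25a1 was 2.755, against 4.903 on the probe set used. That of Epha3 was 1.335 with its 4 probe sets averaged, against 2.78.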
